A study of Homo sapiens with 4 samples.

Results

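Kinesins are motor proteins that use ATP to move along microtubules or to take them apart. The kinesin genes examined here were all genes of the deposited table whose symbol is KIF with a number, with or without a letter, or KIFC with a number, which gave 42 genes among 36359. Of these, 12 are counted as mitotic kinesins, namely KIF2C, KIF4A, KIF11, KIF14, KIF15, KIF18A, KIF18B, KIF20A, KIF20B, KIF22, KIF23 and KIFC1, and the other 30 include the transport motors. Their mRNA was measured by RNA-seq in ACHN, an established line of human renal carcinoma cells grown in MEM, which received by Lipofectamine transfection either control siRNA (siNC) or siRNA against PRR11 (siPRR11), with 2 libraries of each kind. ACHN is a single cell line, and no further treatment is named for either group. The duplex that each siPRR11 library received and the hours between transfection and harvest are not given in the sources used here. Nothing in the labels says that libraries of a group came from separate cultures, so the p-values measure the spread between these libraries, which may be technical.

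In dividing cells, mitotic kinesins push spindle poles apart, carry and align chromosomes, shorten microtubules and build the midzone at which the cell divides. Transport kinesins run in non-dividing cells too, where they carry vesicles, organelles and, in cilia, the trains of intraflagellar transport. Genes of mitotic kinesins are transcribed mainly late in the cell cycle, and many such genes carry a cell cycle genes homology region (CHR) and CCAAT boxes, bound by NF-Y, just before the start site. The CHR is bound by the DREAM complex in resting cells and by MYBL2 and FOXM1 complexes in dividing ones.

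The promoters of the mitotic kinesins could be read from RefSeq (GRCh38.p14, from 250 bases before to 50 bases after the start site), where all 12 mitotic kinesins and 21 of the other 30 had an entry. The words TTTGAA and TTCGAA were searched as the CHR, CCAAT as the CCAAT box and TTTNNCGC as an E2F word, each on both strands. Below are the 150 bases before the start site of KIF4A (chrX:70289954-70290103, plus strand) and KIF11 (chr10:92592980-92593129, plus strand), which hold both a CCAAT box and a CHR, of KIF18B (chr17:44947774-44947923, minus strand), which holds a pair of CCAAT boxes, and of KIF2C (chr1:44739687-44739836, plus strand), which holds neither. KIF3B (chr20:32277501-32277650, plus strand), a transport kinesin with no CHR in the window, is shown beside them. Capitals mark CCAAT boxes and CHR words on either strand.
KIF4A: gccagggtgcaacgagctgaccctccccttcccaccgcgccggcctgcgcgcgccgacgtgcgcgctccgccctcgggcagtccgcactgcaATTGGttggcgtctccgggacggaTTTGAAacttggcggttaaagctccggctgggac
KIF11: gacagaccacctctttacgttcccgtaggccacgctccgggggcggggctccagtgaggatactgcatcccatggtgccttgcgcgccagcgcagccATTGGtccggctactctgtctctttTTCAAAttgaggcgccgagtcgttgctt
KIF18B: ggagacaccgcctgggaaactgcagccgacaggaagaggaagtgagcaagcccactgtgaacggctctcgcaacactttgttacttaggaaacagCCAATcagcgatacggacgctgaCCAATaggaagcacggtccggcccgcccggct
KIF2C: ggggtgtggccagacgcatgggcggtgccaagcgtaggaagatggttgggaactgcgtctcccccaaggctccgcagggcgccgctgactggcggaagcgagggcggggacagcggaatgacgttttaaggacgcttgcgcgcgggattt
KIF3B: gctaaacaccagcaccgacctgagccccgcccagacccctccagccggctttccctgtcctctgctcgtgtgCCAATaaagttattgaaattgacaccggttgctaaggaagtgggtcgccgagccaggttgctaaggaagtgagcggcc

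A CHR word lay in the window of 10 of the 12 mitotic kinesins, of 3 of the 21 other kinesins and of 15.58% of 11704 tested genes with a promoter entry. A CCAAT box was found in 10 of the 12 and in 8 of the 21, against 42.4% of the same genes. Both words stood in 9 of the 12, in 3 of the 21 and in 8.32% of tested genes. KIF20A had CCAAT boxes only, KIF15 a CHR only, and KIF2C neither. The other kinesins with a CHR were KIF4B, KIF5B and KIF24, and each of them also had a CCAAT box. In the 9 mitotic kinesins with both words, the CHR lay downstream of a CCAAT box with 4 to 117 bases between the nearest pair, 20 in KIF11 and 19 in KIF4A. An E2F word stood in 2 of the 12 (16.67%), KIF15 and KIF20B, in 3 of the 21 and in 12.07% of tested genes. The E2F word of KIF15 ends where its CHR begins, and no word searched is part of another. These words are described by their letters only, and binding was not measured.

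Counted reads ranged from 59003839 to 92612749 per library. PRR11, the targeted gene, lay at 9.95 and 9.72 RPKM (counted reads scaled to exonic length and library total) in siNC replicates 1 and 2 and at 3.82 and 3.49 RPKM in siPRR11 replicates 1 and 2, so both silenced libraries lay below both controls (log2 fold change -1.48, standard error (SE) 0.0909, adjusted p = 3.35e-06). Here and below, levels are the deposited RPKM, given in this order of libraries, and fold changes and adjusted p-values are from edgeR's quasi-likelihood test on the counts, with Benjamini-Hochberg adjustment over 21630 genes. With a threshold of 0.05 on the adjusted p, 16.7% of all genes tested differed, 7.61% being higher and 9.14% lower in siPRR11. Of 9 markers of renal epithelium and carcinoma, 8 were above 1 RPKM in every library, CA12 being the exception. Except for CD68 and COL1A1, markers of leukocytes, endothelium and fibroblasts were below that level in every library, and the sums of the 3 lists were 20.3 to 25.2, 0.0263 to 0.0299 and 4.34 to 5.00 RPKM in siNC and 25.1 to 28.1, 0.0497 to 0.0502 and 7.90 to 10.0 RPKM in siPRR11.

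Most mitotic kinesins rose when PRR11 was silenced, and among the other kinesins more fell than rose. Of the 12 mitotic kinesins, all tested, 9 rose and 0 fell, with a median log2 fold change of 0.36. Of the 28 other kinesins that had enough counts to be tested, 12 fell and 1 rose, with a median of -0.27, and 15 did not pass. The difference between the groups of genes was not tested. The median over all genes tested was 0.00. Among genes with a mean of at least 1 RPKM over the 4 libraries, 9.96% rose and 11.9% fell, and of the 20 other kinesins above that level 10 fell and 1 rose. Both siPRR11 libraries were above both siNC libraries for 10 of the 12 mitotic kinesins, against 29.1% of genes tested, and below both for 18 of the 28 others, against 29.3%. The number of mitotic kinesins that rose was 5 without siPRR11 replicate 1 and 11 without siNC replicate 1, and none fell in any fit.

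**Figure D1:**
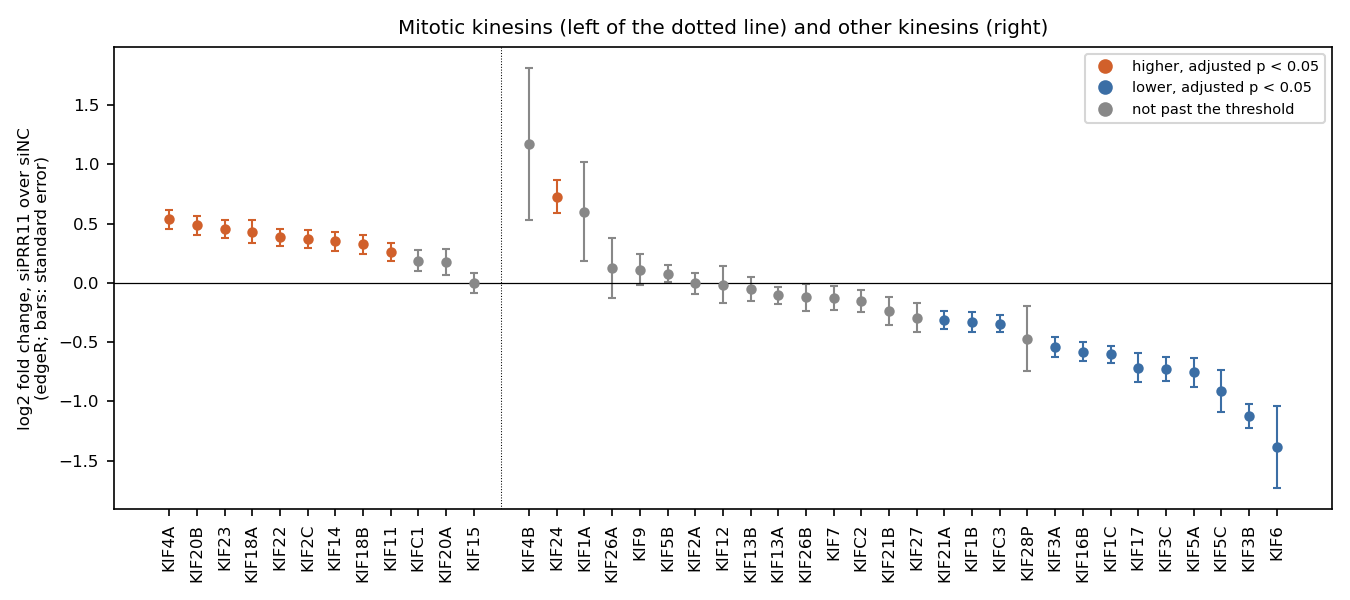
Log2 fold change of each of the 40 kinesin genes tested, with its standard error, for the 12 mitotic kinesins on the left and 28 others on the right. Among the mitotic kinesins 9 are orange (higher, adjusted p-value under 0.05) and none is blue, while among the others 12 are blue (lower) and 1, KIF24, is orange. Of all genes tested, 7.61% were higher and 9.14% lower.

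Levels are compared between genes per exonic length. KIF5B, the ubiquitous heavy chain of conventional kinesin, was the most abundant kinesin mRNA in each library, with 77.0 and 79.3 RPKM in siNC and 85.9 and 84.5 RPKM in siPRR11, or 18.3% to 19.5% of the RPKM summed over the 42 genes. By group mean it was followed in siNC by KIF1C, KIF11, KIFC1 and KIFC3, and in siPRR11 by KIF11, KIFC1, KIF1C and KIF23. The order of KIF11 and KIFC1 is not settled in siNC, where replicate 1 had more KIFC1 (28.3 against 27.5 RPKM) and replicate 2 more KIF11 (28.7 against 24.1 RPKM). Nor is that of KIFC1 and KIFC3, since KIFC3 lay below KIFC1 in replicate 1 (24.9 RPKM) and above it in replicate 2 (25.4 RPKM). Every mitotic kinesin was expressed, between a siNC mean of 4.20 RPKM for KIF18A and 28.1 RPKM for KIF11.

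Summed over the 12 genes, mitotic kinesin mRNA was at 172.3 and 167.3 RPKM in siNC and at 227.2 and 215.01 RPKM in siPRR11. Over the other 30 genes the sums were 249.002 and 256.5 RPKM in siNC and 223.05 and 218.1 RPKM in siPRR11. The mitotic share of all kinesin RPKM was thus 40.9% and 39.5% in the control libraries and 50.5% and 49.6% in the silenced ones, with no overlap between the groups. The sum over all 42 genes was 421.3 and 423.8 RPKM in siNC against 450.3 and 433.1 RPKM in siPRR11. In bulk RNA, a larger share of cells that express a gene and more of its mRNA per cell cannot be told apart.

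**Figure D2:**
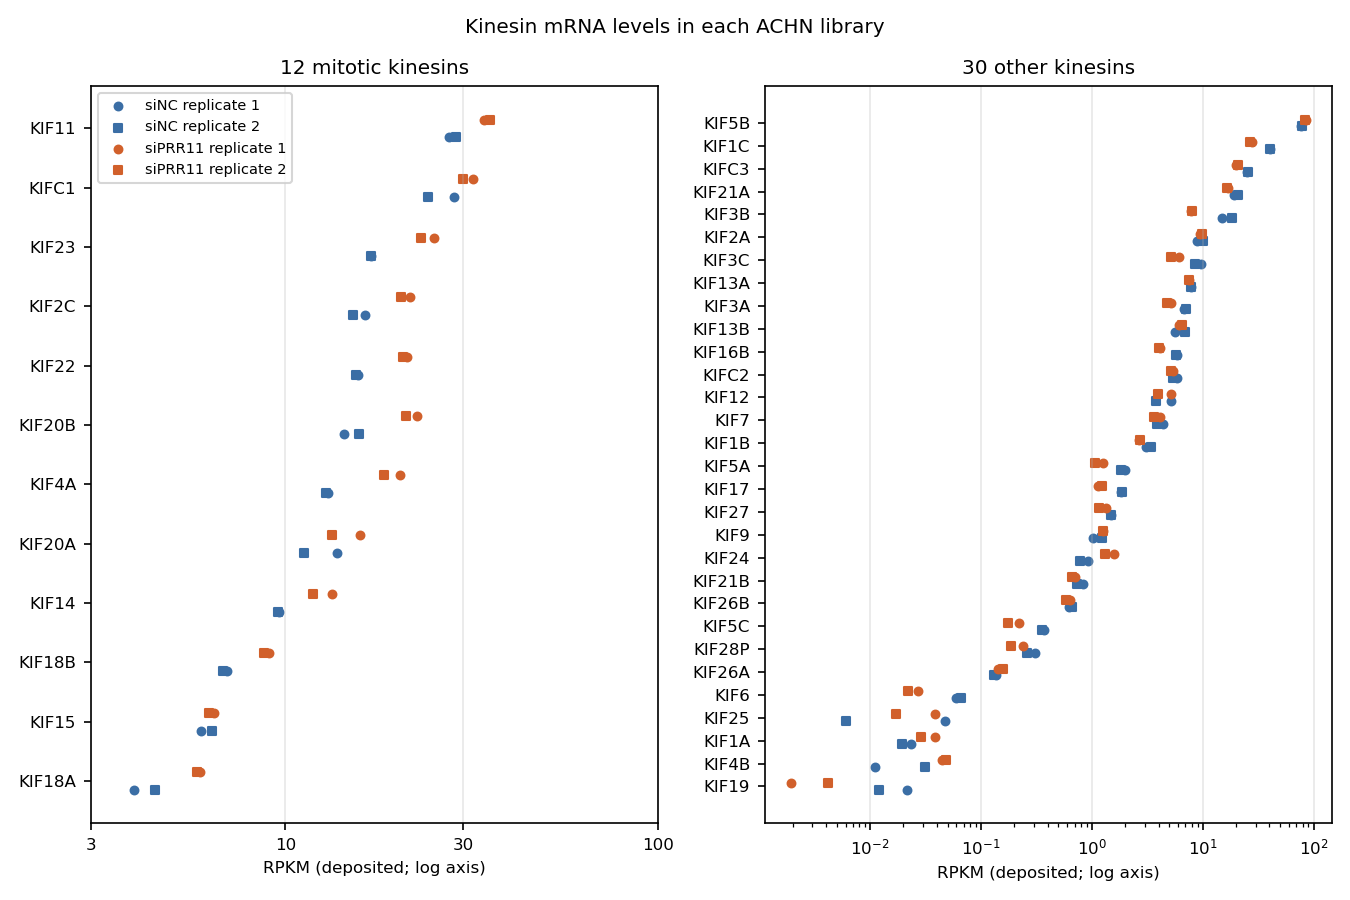
Deposited RPKM of the 42 kinesin genes in each of the 4 libraries on log axes, with circles for replicate 1 and squares for replicate 2, siNC in blue and siPRR11 in orange. The orange points lie to the right of the blue ones for 10 of the 12 mitotic kinesins. Of all genes tested, 29.1% had both siPRR11 libraries above both siNC libraries and 29.3% below, on TMM-normalized counts. Among the other kinesins they lie to the left in more genes, such as KIF1C, KIF3A, KIF3B and KIF3C, than to the right, such as KIF5B and KIF24.

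The rise included motors of chromosomes and of the midzone. KIF4A, a chromokinesin that also limits the length of midzone microtubules, was at 13.0 and 12.8 RPKM in siNC and 20.3 and 18.4 RPKM in siPRR11, the largest log2 fold change among mitotic kinesins at 0.54 (SE 0.0790, adjusted p = 0.000961 from edgeR). KIF20B, a kinesin of cytokinesis, was at 14.4 and 15.8 RPKM in siNC and 22.5 and 21.1 RPKM in siPRR11, a log2 fold change of 0.49 (SE 0.0784, adjusted p = 0.00164 from edgeR). KIF23, the motor of the centralspindlin complex, was at 17.0 RPKM in both control libraries and 25.1 and 23.1 RPKM in the silenced ones, a log2 fold change of 0.45 (SE 0.0744, adjusted p = 0.00176 from edgeR). For each of these genes the silenced libraries stood clear of the controls, and no library, when left out, ended the call.

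KIF18A, which damps chromosome oscillation at the metaphase plate, was the least abundant mitotic kinesin and went from 3.92 and 4.48 RPKM to 5.91 and 5.79 RPKM (log2 fold change 0.43, SE 0.0965, adjusted p = 0.00982 from edgeR). KIF22, a chromokinesin that pushes chromosome arms from the poles, went from 15.6 and 15.4 RPKM to 21.2 and 20.7 RPKM (log2 fold change 0.38, SE 0.0734, adjusted p = 0.00432 from edgeR). Exons of a gene on the other strand cover 13.01% of the exonic bases of KIF22, and 12.7% of those of KIFC1 are covered likewise. Whether strand was used in counting is not given. KIF2C, which removes tubulin from microtubule ends at kinetochores, went from 16.3 and 15.1 RPKM to 21.6 and 20.4 RPKM (log2 fold change 0.37, SE 0.0788, adjusted p = 0.00774 from edgeR). KIF2C has no CHR or CCAAT word in its window, while KIFC1, with both, and KIF15, with a CHR, did not pass. The part of these words in the changes was not tested. The call for KIF2C was lost without siPRR11 replicate 1, where its log2 fold change was 0.33.

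Smaller rises were seen for KIF14, which recruits citron kinase to the midbody (log2 fold change 0.35), for KIF18B, which shortens astral microtubules (0.32), and for KIF11, which slides spindle microtubules apart (0.26). KIF11 was at 27.5 and 28.7 RPKM in siNC and 34.2 and 35.3 RPKM in siPRR11 (SE 0.0719, adjusted p = 0.0284 from edgeR). Each of these 3 calls was lost with a siPRR11 library left out, KIF14 without replicate 1 only and KIF18B and KIF11 without either replicate. Without siPRR11 replicate 1 the adjusted p from edgeR was 0.193 for KIF14, 0.164 for KIF18B and 0.117 for KIF11, and without siPRR11 replicate 2 it was 0.0986 for KIF18B and 0.237 for KIF11, while the log2 fold changes stayed between 0.23 and 0.43.

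The remaining mitotic kinesins did not pass the threshold. KIFC1, a minus-end motor that gathers centrosomes into a pair of poles, was at 28.3 and 24.1 RPKM in siNC and 31.8 and 29.9 RPKM in siPRR11 (log2 fold change 0.19, SE 0.0877, adjusted p = 0.176 from edgeR). KIF20A, which brings Aurora B to the midzone, was at 13.8 and 11.2 RPKM in siNC and 15.8 and 13.4 RPKM in siPRR11, and these groups overlapped (log2 fold change 0.18, SE 0.110, adjusted p = 0.308 from edgeR). Without siNC replicate 1 both passed, with log2 fold changes of 0.30 (adjusted p = 0.00992 from edgeR) for KIFC1 and 0.33 (adjusted p = 0.0122 from edgeR) for KIF20A. Without siNC replicate 2 the log2 fold changes were 0.07 (adjusted p = 0.628 from edgeR) for KIFC1 and 0.03 (adjusted p = 0.868 from edgeR) for KIF20A, and without siPRR11 replicate 1 or 2 neither passed. KIF15, which works beside KIF11 in the spindle, was at 5.92 and 6.33 RPKM in siNC and 6.43 and 6.24 RPKM in siPRR11, a log2 fold change of 0.00 with a SE of 0.0850.

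CENPE, a kinetochore kinesin whose symbol keeps it out of the 42 genes, was at 9.30 and 8.32 RPKM in siNC and 12.5 and 11.1 RPKM in siPRR11 (log2 fold change 0.37, SE 0.0860, adjusted p = 0.0115 from edgeR). Its call was lost without siPRR11 replicate 1 (adjusted p = 0.125 from edgeR) and on log2(RPKM + 1) (adjusted p = 0.0573 from limma). STARD9, another kinesin outside the symbol rule, had a log2 fold change of 0.08 (SE 0.107, adjusted p = 0.673 from edgeR).

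Among 28 genes that work with mitotic kinesins, 14 rose and 2 fell, against 7.61% and 9.14% of all genes tested, with a median log2 fold change of 0.24. The largest rises were those of NUSAP1, a microtubule-bundling spindle protein, by 0.67, of DLGAP5, a kinetochore fiber protein, by 0.58 and of CIT, the citron kinase that KIF14 recruits, by 0.52. RACGAP1, the partner of KIF23 in centralspindlin and named here for that role, was at 16.7 and 16.8 RPKM in siNC and 23.0 and 22.5 RPKM in siPRR11 (log2 fold change 0.39, SE 0.0727, adjusted p = 0.00349 from edgeR). The RPKM of KIF23 divided by that of RACGAP1 was 1.02 and 1.01 in siNC and 1.09 and 1.03 in siPRR11. Reads per exonic length of both subunits thus stayed near equal, which does not give the ratio of their mRNA molecules. NUMA1, which anchors dynein at the spindle poles, fell by 0.37 and NEK6, a kinase upstream of KIF11, fell by 0.31 on the log2 scale. Without siPRR11 replicate 1, 9 of the 28 passed the threshold.

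Of 16 cell cycle markers, 8 rose and 1 fell, against 7.61% and 9.14% of all genes tested. FOXM1, a transcription factor of late cell cycle genes, rose from 15.9 and 15.1 RPKM to 25.9 and 24.8 RPKM, and TOP2A and LIN9 rose by 0.63 and 0.55 on the log2 scale. E2F4 fell by 0.41 and LIN54 rose by 0.45 on the same scale. MYBL2 had a log2 fold change of 0.25 and did not pass (adjusted p = 0.0839 from edgeR). MKI67, a general marker of dividing cells named after its values were seen, had a log2 fold change of 0.21 and did not pass the threshold (adjusted p = 0.0753 from edgeR). The part of the cell cycle distribution in the change of the mitotic kinesins was not tested. Over the tested genes that are not kinesins, 13.41% of the 962 genes with both a CHR and a CCAAT box rose and 12.27% fell, against 8.97% and 11.53% of the 10710 genes without both.

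The kinesins that fell were led by kinesin-2, the motor family of intraflagellar transport. All 4 of its genes fell, against 9.14% of all genes tested. KIF3B was at 14.9 and 18.4 RPKM in siNC and 7.81 and 7.98 RPKM in siPRR11 (log2 fold change -1.12, SE 0.0988, adjusted p = 3.32e-05 from edgeR), so 45.9% of its control level remained. By p-value it ranked at place 72 of the 21630 genes tested. KIF3A, the subunit that pairs with KIF3B or KIF3C, was at 6.84 and 7.13 RPKM in siNC and 5.13 and 4.79 RPKM in siPRR11 (log2 fold change -0.54, SE 0.0828, adjusted p = 0.00119 from edgeR). Within each library there was more KIF3B than KIF3A mRNA per length, by 2.17 and 2.58 times in siNC and by 1.52 and 1.67 times in siPRR11, with no overlap between the groups.

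KIF3C, the alternative partner of KIF3A, was at 9.57 and 8.57 RPKM in siNC and 6.17 and 5.15 RPKM in siPRR11 (log2 fold change -0.73, SE 0.0997, adjusted p = 0.000613 from edgeR). KIF17, the homodimeric member, was at 1.85 and 1.89 RPKM in siNC and 1.13 and 1.23 RPKM in siPRR11 (log2 fold change -0.72, SE 0.122, adjusted p = 0.00216 from edgeR). KIFAP3, the non-motor subunit that joins the KIF3 pair to cargo, went from 1.97 and 1.81 RPKM to 1.27 and 1.23 RPKM (log2 fold change -0.65, SE 0.117, adjusted p = 0.00312 from edgeR). The silenced libraries were below both controls for all 5 genes, against 29.3% of all genes tested. The 4 motor genes kept their calls in each of the 11 other fits.

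Most genes of the trains that kinesin-2 moves did not pass the threshold. Of 23 intraflagellar transport genes, 5 fell and 2 rose, against 9.14% and 7.61% of all genes tested, and the median log2 fold change was -0.08. The log2 fold change was negative in 18 of the 23 and positive in 5, against 10755 and 10875 of the 21630 genes tested. On log2(RPKM + 1) and log2(RPKM + 0.1), 2 and 3 of the 23 passed with limma. The largest falls were in TRAF3IP1 (IFT54), at 32.2 and 29.8 RPKM in siNC and 20.3 and 18.6 RPKM in siPRR11, by 0.72 on the log2 scale, in IFT57 by 0.60 and in IFT88 by 0.46. IFT27 and HSPB11 (IFT25), which form a small subcomplex with each other, rose by 0.58 and 0.39.

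**Figure D3:**
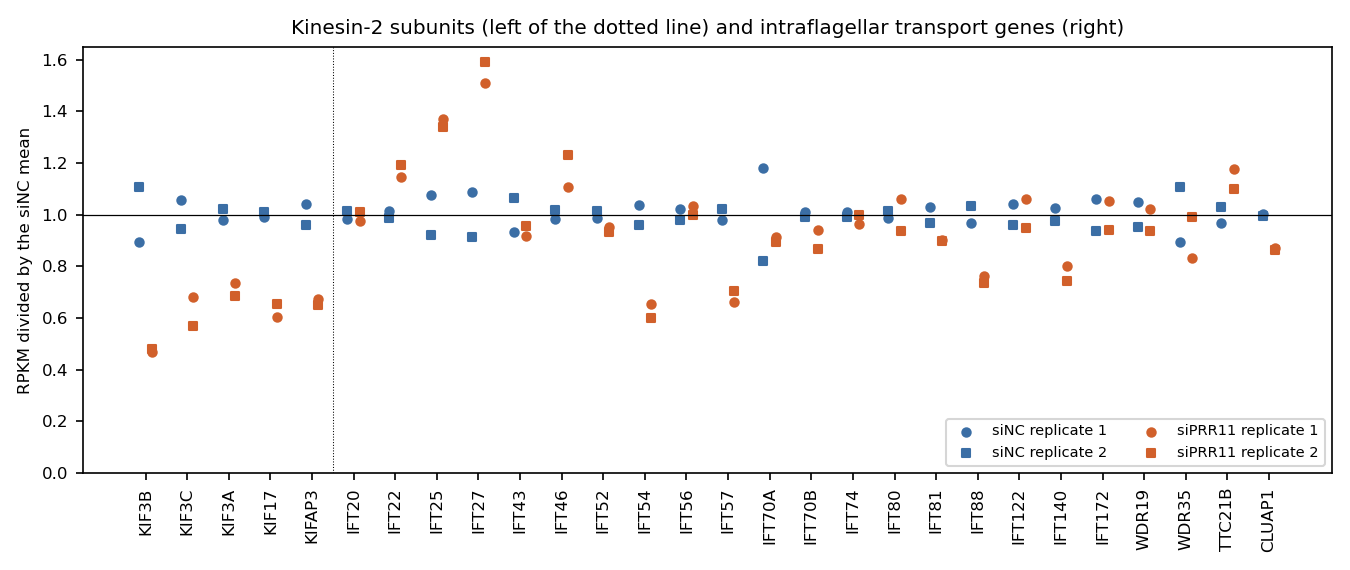
RPKM of each library divided by the siNC mean for the 4 kinesin-2 motor genes and KIFAP3, left of the dotted line, and for 23 intraflagellar transport genes, right of it. For each of the 5 kinesin-2 genes both orange (siPRR11) points lie below both blue (siNC) points, against 29.3% of all genes tested. The transport genes spread to both sides of 1.

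In kinesin-1, which carries vesicles and mitochondria along axons and through the cytoplasm, the abundant KIF5B did not pass the threshold (log2 fold change 0.08, SE 0.0692, adjusted p = 0.496 from edgeR), and the scarce paralogs fell. KIF5A was at 1.98 and 1.82 RPKM in siNC and 1.26 and 1.07 RPKM in siPRR11 (log2 fold change -0.76, SE 0.120, adjusted p = 0.00148 from edgeR). KIF5C was at 0.368 and 0.357 RPKM in siNC and 0.223 and 0.175 RPKM in siPRR11 (log2 fold change -0.91, SE 0.181, adjusted p = 0.00530 from edgeR). At this low level the call for KIF5C was lost on log2(RPKM + 1) (adjusted p = 0.0627 from limma) and log2(RPKM + 0.1) (adjusted p = 0.0829 from limma). Of the 4 kinesin light chain genes, which link these motors to cargo, KLC2 fell by 0.30 on the log2 scale and KLC1, KLC3 and KLC4 had log2 fold changes of 0.03, -0.16 and 0.10 and did not pass.

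In kinesin-3, a family of vesicle and endosome motors, KIF1C fell most in level. It was at 40.2 RPKM in both control libraries and 27.9 and 26.8 RPKM in the silenced ones (log2 fold change -0.60, SE 0.0698, adjusted p = 0.000218 from edgeR). KIF16B, which moves early endosomes, was at 5.93 and 5.78 RPKM in siNC and 4.09 and 4.01 RPKM in siPRR11 (log2 fold change -0.58, SE 0.0808, adjusted p = 0.000675 from edgeR). Replicates of these genes lay close together, and no fit ended either call. KIF1B, a carrier of mitochondria and synaptic vesicle precursors, fell by 0.33 (adjusted p = 0.0179 from edgeR), but its adjusted p was 0.140 without siPRR11 replicate 1, 0.0703 without siPRR11 replicate 2 and 0.175 on log2(RPKM + 1) with limma. KIF13A and KIF13B, of the same family, had log2 fold changes of -0.11 and -0.05 and did not pass.

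Falls were also measured for KIFC3, a minus-end motor of epithelial junctions and the Golgi, and for KIF21A, which slows microtubule growth at the cell cortex. KIFC3 was at 24.9 and 25.4 RPKM in siNC and 20.0 and 21.0 RPKM in siPRR11 (log2 fold change -0.34, SE 0.0712, adjusted p = 0.00678 from edgeR), with an adjusted p of 0.0833 without siPRR11 replicate 1. KIF21A was at 19.1 and 21.0 RPKM in siNC and 16.8 and 16.5 RPKM in siPRR11 (log2 fold change -0.31, SE 0.0751, adjusted p = 0.0149 from edgeR), and its adjusted p was 0.0700 without siPRR11 replicate 1, 0.0897 without siPRR11 replicate 2 and 0.0795 on log2(RPKM + 1) with limma. KIF6, a kinesin of motile cilia, had the lowest log2 fold change at -1.38 (SE 0.348, adjusted p = 0.0182 from edgeR) but rested on 59 and 46 reads in siNC and 30 and 22 reads in siPRR11, and it was lost without siPRR11 replicate 2 (adjusted p = 0.0886 from edgeR) and on both log2 RPKM scales, while DESeq2 gave it no adjusted p.

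KIF24 was the only one of the 28 tested other kinesins that rose. It is a kinesin-13 protein of centrioles that opposes the growth of cilia. Its level was 0.925 and 0.777 RPKM in siNC and 1.59 and 1.33 RPKM in siPRR11 (log2 fold change 0.73, SE 0.139, adjusted p = 0.00435 from edgeR). The call held without each library in turn, and with limma on log2(RPKM + 1) the adjusted p was 0.0577. KIF24 is one of the 3 other kinesins with both a CHR and a CCAAT box. In KIF5B, another, the CHR lies upstream of the CCAAT box, and KIF5B did not pass the threshold. KIF4B, the third, had 4 and 8 reads in siNC and 18 in each siPRR11 library and did not pass either. The part of these words was not tested.

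The remaining 15 tested genes of the other kinesins, KIF5B among them, did not pass. KIF2A, a paralog of KIF2C that acts on spindle poles and in neurons, was at 8.89 and 10.1 RPKM in siNC and 9.55 and 9.95 RPKM in siPRR11, and the groups overlapped. The log2 fold changes of KIF7, KIF9, KIF12, KIF21B, KIF26A, KIF26B, KIF27, KIF28P and KIFC2 lay between -0.47 and 0.13. KIF12 showed the widest spread among those above 1 RPKM, with 5.14 and 3.79 RPKM in siNC and 5.20 and 3.96 RPKM in siPRR11. KIF1A had 24 and 14 reads in siNC and 44 and 30 reads in siPRR11 and did not pass. KIF4B, an intronless copy of KIF4A whose transcript is 95.55% identical over aligned bases, had 4 and 8 reads in siNC and 18 in each siPRR11 library, and how reads were divided between the copies is uncertain. KIF19 (10, 4, 1 and 2 reads) and KIF25 (11, 1, 10 and 4 reads) had too few reads to be tested.

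Among 27 kinesin light chains, adaptors and cargo partners, 7 fell and 1 rose, against 9.14% and 7.61% of all genes tested, and the median log2 fold change was -0.05. Beside KIFAP3 the largest falls were in SYBU, an adaptor of kinesin-1, by 0.78 on the log2 scale, and in LRRK1 by 0.51. SYNE2, a nuclear envelope protein that binds kinesin-1, rose by 0.46. Without siPRR11 replicate 1, 4 of the 27 passed the threshold, and 2 and 1 passed on the RPKM scales. For the opposite motor, cytoplasmic dynein with dynactin and its adaptors, 33 of 34 genes were tested, of which 7 fell and 4 rose, against the same shares of all genes, with a median of -0.02. Its adaptors BICD2 and BICD1 moved apart, with BICD2 rising by 0.54 and BICD1 at -0.58 on the log2 scale. DYNLL2 fell by 0.45 and the more abundant DYNLL1 rose by 0.30, with siNC means of 14.4 and 146.4 RPKM. Without siPRR11 replicate 1 and on both RPKM scales, 5 of these dynein genes passed.

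**Figure D4:**
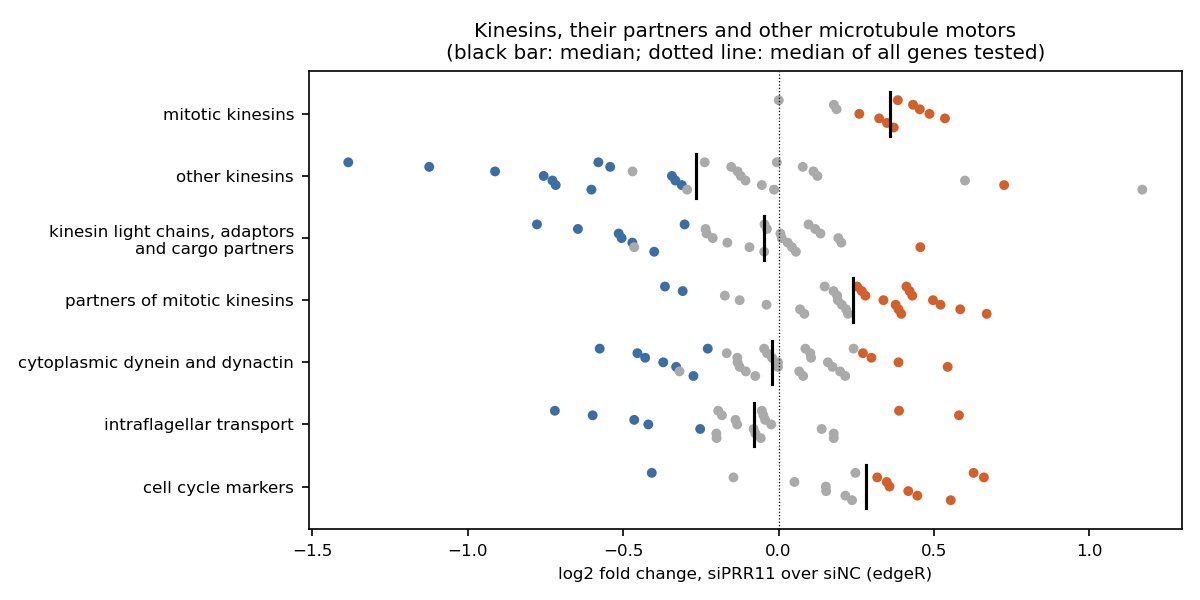
Log2 fold changes of the tested genes of 7 gene lists, with the median of each list as a black bar and the median of all genes as a dotted line. Orange points rose and blue points fell at an adjusted p-value under 0.05. The medians are 0.36 for mitotic kinesins and 0.24 for their partners, and -0.27 for other kinesins, -0.05 for light chains and adaptors and -0.02 for dynein and dynactin.

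Exons of other genes overlapped those of 20 of the 42 kinesins, and for KIF1B (1.65% of exonic bases) and KIF2A (8.97%) the other gene lay on the same strand.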

How the data were processed

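Stranded libraries of ACHN cells, 2 labelled siNC and 2 labelled siPRR11, were grouped by their titles. The authors trimmed reads (Trimmomatic 0.36 in the submitters' processing notes), mapped them with STAR on GRCh38 and assigned them to genes by featureCounts (Subread 1.5.1). They deposited raw read counts and RPKM of the same genes, which equal count over exonic length and column total to within 2.45e-06 RPKM. The annotation release and strand setting are not given in the sources used here. Counts were tested with edgeR 4.0.16 (R 4.3.3; quasi-likelihood test, TMM factors of 0.983 to 1.02, filterByExpr, condition as the only term), with 14729 genes left out for low counts and 0.05 as the threshold of the adjusted p. The standard error is the log2 fold change divided by the square root of F. Alternatives were RLE factors, DESeq2 1.42.0, no filter, a minimum of 10 counts in all libraries, a replicate block, limma 3.58.1 with a variance trend on log2(RPKM + 1) and log2(RPKM + 0.1), and each library left out, where a lone library is assumed to vary like the other group.

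Counts of replicate libraries differed beyond sampling noise (chi-square over degrees of freedom, 20.1 for siNC and 14.1 for siPRR11). Depth was high, so replicate spread set the precision for all but the lowest genes. On simulated counts with 100 genes at a log2 change of 1 and 100 at 0.5, edgeR recovered 98 and 58 of them in the siPRR11 comparison over 21520 genes, with 6 false calls. Changed genes were drawn from those above a minimum mean count, and all genes were given the same dispersion. Recovery was therefore not measured for low genes or for genes with widely spread replicates. The positions of all 42 kinesins overlapped the same symbols in GENCODE release 44. Named genes were PRR11, the 12 mitotic kinesins, other kinesins past the threshold, the 5 most abundant others, untested kinesins, CENPE, STARD9 and up to 3 genes per direction in each list, with other names given for completeness or chosen after their values were seen. The members and lists were chosen with earlier results of these data known, so no list was tested as a set.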

Additional observations from a re-analysis of the deposited data

How the results depend on the processing

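With RLE factors, DESeq2, no filter or at least 10 counts in every library, no count of mitotic or other kinesins moved by over 1.5 times, and PRR11 kept its call in every fit. The median was above 0 for mitotic kinesins and below 0 for other kinesins in all fits, with 0.32 to 0.40 for mitotic kinesins and -0.31 to -0.20 for others when each library was left out. On log2(RPKM + 1) and log2(RPKM + 0.1), limma called 8 other kinesins each, 0 of them higher, with medians of -0.081 and -0.20, and the mitotic median was 0.40 on the latter scale. These scales also called 28 and 29 genes of the partner, dynein, transport and marker lists in place of 52, with 2 and 1 light chains and adaptors, 5 and 5 dynein genes and 2 and 3 intraflagellar transport genes, and 1775 (1091 higher, 684 lower) and 1878 genes (726 lower) in all. The RPKM pseudocount shrinks changes of low genes by construction. When each library was left out, the counts of genes past the threshold ranged from 5 to 11 for mitotic kinesins, 4 to 10 for light chains and adaptors, 9 to 17 for mitotic partners, 5 to 12 for dynein, 30 to 58 for all lists, and 2172 to 4590 for all genes (945 to 2173 higher, 1227 to 2417 lower), the lowest being without siPRR11 replicate 1.

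The replicate number as a block raised the count over all genes from 3622 to 6988 (3338 higher, 3650 lower), with 11 mitotic and 14 other kinesins past the threshold. Deviations of replicate 1 from its group mean correlated between the groups at 0.327, but with 2 pairs and no shared batch in the labels the numbers are not taken to pair the libraries.

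Changes of sign occurred only for genes that did not pass in the main test. KIF2A had 0.0028 with at least 10 counts, 0.039 and 0.043 on the RPKM scales and -0.10 to 0.083 with libraries left out. KIF12 had 0.033 and 0.040 on the RPKM scales and -0.22 to 0.22, KIF13B 1.5e-05 on log2(RPKM + 0.1) and -0.20 to 0.10, KIF15 -0.050 to 0.045, KIF9 -0.025 to 0.25 and STARD9 -0.026 to 0.18. The cause of these shifts was not tested.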
